A study of Mus musculus with 16 samples.

Results

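The expression of 10 genes that peroxisome proliferator-activated receptor alpha (PPAR alpha) is known to induce strongly in the fasting liver was read in 16 mouse livers. The genes are Cyp4a10, Cyp4a14, Cyp4a31, Cyp4a32, Acot1, Acot2, Vnn1, Pdk4, Angptl4 and Creb3l3. They were taken by symbol from a table of 24010 entries, and each of the 10 symbols matched 1 entry. All mice were C57BL/6 and had been given a plasmid by hydrodynamic injection, in which a large volume is pushed quickly into the tail vein so that liver cells take up the DNA. The 4 groups were old mice (23 months) with a plasmid coding for human MANF, old mice with the empty plasmid, young mice (5 months) with the MANF plasmid and young mice with the empty plasmid, with 4 animals in each. They are called old MANF, old control, young MANF and young control below. Both plasmids were enhanced episomal vectors (EEV), the livers were taken 5 weeks after injection, and every control had thus been injected too. MANF, mesencephalic astrocyte-derived neurotrophic factor, is a protein of the endoplasmic reticulum (ER) that can be secreted. Sex, feeding state and the hour of collection are not given in the sources used here, and feeding state and hour are both known to set the level of several of the 10 genes.

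PPAR alpha is a nuclear receptor of hepatocytes that binds fatty acids and pairs with the retinoid X receptor on DNA. In fasting, fatty acids released by fat tissue reach the liver, the receptor switches on genes for their oxidation, and ketone bodies are made from the product. The 10 genes cover several steps of this response. The Cyp4a enzymes are cytochromes P450 that hydroxylate the far end of the fatty acid chain. Acot1 and Acot2 split acyl-CoA into free fatty acid and coenzyme A, in the cytosol and in mitochondria. Vnn1 cuts pantetheine to pantothenate and cysteamine. Pdk4 switches off pyruvate dehydrogenase and so spares glucose. Angptl4 is secreted and inhibits lipoprotein lipase. Creb3l3 is a transcription factor held in the ER membrane that works together with PPAR alpha.

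The 4 Cyp4a genes lie beside each other on mouse chromosome 4 (build mm10, GRCm38, GENCODE M21). Cyp4a14 is at chr4:115486200-115496142 on the minus strand, and on the plus strand follow Cyp4a10 at chr4:115518264-115533649, Cyp4a31 at chr4:115563649-115579015 and Cyp4a32 at chr4:115600969-115621602. Acot2 (chr12:83987861-83993873) and Acot1 (chr12:84009490-84018371) are neighbours on the plus strand of chromosome 12. Vnn1 is at chr10:23894688-23905343 on the plus strand, Creb3l3 at chr10:81084324-81098874 on the minus strand, Pdk4 at chr6:5483351-5496309 on the minus strand and Angptl4 at chr17:33773750-33781830 on the minus strand. No other annotated gene overlapped any of the 10. The first 90 coding bases of the Cyp4a genes are shown because their likeness bears on how reads could be told apart, with each base that differs from Cyp4a10 in capitals.
Cyp4a10: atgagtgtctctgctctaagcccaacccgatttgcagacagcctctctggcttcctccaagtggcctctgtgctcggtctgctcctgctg
Cyp4a14: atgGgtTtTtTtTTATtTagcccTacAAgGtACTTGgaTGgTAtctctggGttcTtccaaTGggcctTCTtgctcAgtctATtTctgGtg
Cyp4a31: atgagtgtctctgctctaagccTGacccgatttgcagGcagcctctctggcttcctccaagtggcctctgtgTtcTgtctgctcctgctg
Cyp4a32: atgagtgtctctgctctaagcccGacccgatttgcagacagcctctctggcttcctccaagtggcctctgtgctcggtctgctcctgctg
Cyp4a14 differs from Cyp4a10 at 34 of these 90 bases, Cyp4a31 at 5 and Cyp4a32 at 1.

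Over the whole coding sequence, Cyp4a10 was 97.2% identical to Cyp4a32 and 96.6% to Cyp4a31, and Cyp4a31 and Cyp4a32 were 96.0% identical. Cyp4a14 was 76.2 to 76.8% identical to the other 3. Of all stretches of 50 bases in the transcript, 46.8% in Cyp4a32, 30.5% in Cyp4a10 and 20.1% in Cyp4a31 also occur, letter for letter, in a transcript of a related gene, against 0.245% in Cyp4a14. How reads that align to several genes were assigned, or whether they were dropped, is not stated. The values of Cyp4a10, Cyp4a31 and Cyp4a32 may thus hold reads of each other or lack reads, and their split is uncertain. The same holds for Acot1 and Acot2, which share 32.2% and 27.6% of such stretches with related genes and are 95.3% identical over 1236 aligned coding bases. Their matching starts are shown with the bases of Acot2 that differ from Acot1 in capitals, 11 of 90.
Acot1: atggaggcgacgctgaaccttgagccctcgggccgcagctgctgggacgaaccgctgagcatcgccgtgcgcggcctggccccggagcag
Acot2: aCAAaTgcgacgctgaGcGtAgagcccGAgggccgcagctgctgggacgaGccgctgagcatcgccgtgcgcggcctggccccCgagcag
The Acot2 stretch is coding bases 124 to 213, because Acot2 has 123 coding bases ahead of the start of Acot1. For Vnn1, Angptl4 and Creb3l3 no stretch of 50 bases was shared with the relatives searched, and for Pdk4 0.0582% was.

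Levels are given as RPKM, reads per kilobase of gene and megaread of the library, which the authors had computed. The libraries held 18.31 to 26.12 M reads (M, megareads). All 10 genes passed the filter on low values, which asked for 0.5 RPKM or more in 4 or more libraries. Of the 10, 9 had that level in every library and Pdk4 had it in 15. Averaged over the 16 livers, the order from high to low was Creb3l3 (89.0 RPKM), Cyp4a10 (59.9), Cyp4a14 (56.4), Angptl4 (42.4), Cyp4a32 (29.2), Vnn1 (14.3), Acot1 (12.2), Cyp4a31 (3.03), Pdk4 (1.86) and Acot2 (1.31). The ranges over livers of neighbours in this order overlapped. Hepatocyte markers were abundant in every library, with Alb (albumin) at 20091 to 34329 RPKM, as in liver tissue. Markers of striated muscle summed to at most 0.248 RPKM and those of kidney tubule to at most 0.216 RPKM. In a piece of tissue, fewer cells of a type and less RNA per cell cannot be told apart.

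**Figure D1:**
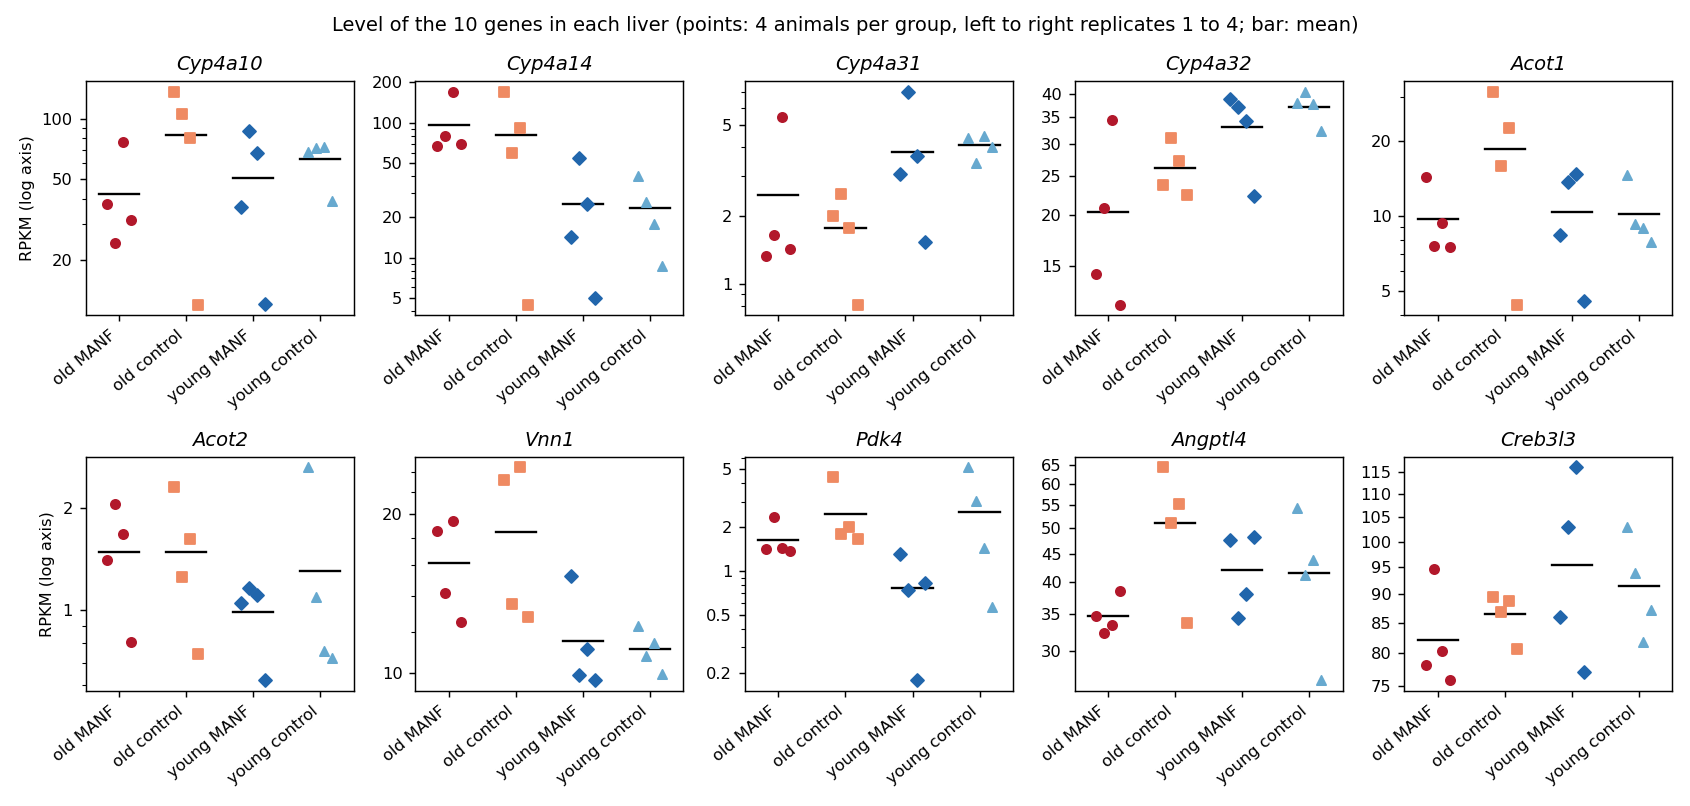
Level of each of the 10 genes in every liver, as RPKM on a log axis, with the 4 groups along the horizontal axis. Each point is 1 animal and the bar is the mean of 4. Cyp4a14 spans 4.48 to 170 RPKM, whereas Creb3l3 stays between 75.8 and 116 RPKM.

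The genes differed widely in how much animals of 1 group varied. The standard deviation within groups, on the log2(RPKM + 0.5) scale on which all differences below are given, was 1.43 for Cyp4a14 and 1.08 for Cyp4a10, against a median of 0.19 over the 10677 genes tested. Acot1 (0.75), Pdk4 (0.68), Cyp4a31 (0.62) and Acot2 (0.47) followed. Of all tested genes, 99.7% varied less than Cyp4a10 and 93.1% less than Acot2. Creb3l3 was the only one of the 10 below the median of all genes, with 0.17. The highest liver had 37.9 times the RPKM of the lowest for Cyp4a14, 29.2 times for Pdk4, 11.3 times for Cyp4a10 and 1.54 times for Creb3l3.

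The comparison of ages in control mice asks what differs between old and young liver without the MANF plasmid. In old control against young control livers, limma called 0 of the 10 genes at a Benjamini-Hochberg adjusted p below 0.05, where 1.25% of all tested genes were called (133 of 10677). At an unadjusted p below 0.05 there were 2 of the 10 (Vnn1 and Cyp4a31), where the share of all genes was 14.9%. The groups did not overlap for 3 of the 10 (Vnn1, Cyp4a31 and Cyp4a32), where they did not for 10.5% of all genes. The median difference of the 10 genes was 0.16 on the log2 scale, with 7 above 0, and that of all tested genes 0.05. The corresponding comparison in mice with the MANF plasmid, old MANF against young MANF, also had 0 of 10 called, where 6.57% of all genes were (702). At an unadjusted p below 0.05 were 3 of the 10 (Cyp4a32, Cyp4a14 and Vnn1), where the share of all genes was 33.4%. The groups did not overlap for 2 of the 10 (Cyp4a14 and Pdk4), where they did not for 23.6% of all genes. The median of the 10 was -0.04, with 4 above 0, against 0.18 over all genes. Scaling every library to the same median moved that 0.18 to -0.04 and turned the split of all calls from 625 higher and 77 lower to 93 higher and 217 lower, so differences of this size carry the choice of scaling.

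Cyp4a14, a fatty acid hydroxylase and classical PPAR alpha target, had the largest age differences of the 10. It stood at 67.2, 80.1, 169 and 69.8 RPKM in old MANF livers and at 170, 59.6, 90.7 and 4.48 RPKM in old control livers. In young MANF livers it was at 14.1, 55.0, 25 and 5.01 RPKM, and in young control livers at 40.5, 25.7, 17.7 and 8.62 RPKM. Every old MANF liver was above every young MANF liver, and old control livers overlapped young control livers through old control replicate 4 alone, the lowest of all 16. The difference of old MANF against young MANF was 2.29 (95% confidence interval 0.40 to 4.18), with an adjusted p of 0.0966 by limma. Over all alternatives the difference was 1.71 to 2.82 and the adjusted p 0.0297 to 0.187. It passed 0.05 in a fit of these 8 libraries alone (0.0447) and without both young MANF replicate 3 and old control replicate 4, the libraries farthest from their groups over all genes (0.0297), and in no other alternative. In old control against young control the difference was 1.17 (-0.71 to 3.06), adjusted p 0.603 by limma. It was 2.25 without old control replicate 4, 0.55 without old control replicate 1 and 0.78 without young control replicate 4, with adjusted p of 0.113, 0.864 and 0.862.

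Cyp4a10, its neighbour, had age differences close to 0 with wide intervals. It stood at 37.6, 24.2, 76.6 and 31.3 RPKM in old MANF livers and at 136, 105, 80.4 and 12 RPKM in old control livers. Young MANF livers had 36.7, 86.7, 67.7 and 12.1 RPKM and young control livers 68.3, 71.9, 72.5 and 38.9 RPKM. All pairs of groups overlapped, and the lowest livers were old control replicate 4 and young MANF replicate 4. The difference was -0.07 for old MANF against young MANF (-1.50 to 1.36) and 0.01 for old control against young control (-1.43 to 1.44), and both intervals reach beyond 1 log2 unit in either direction.

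Cyp4a32 and Cyp4a31 ran the other way from Cyp4a14. Cyp4a32 had 14.3, 20.8, 34.4 and 12 RPKM in old MANF livers, 23.7, 31.1, 27.3 and 22.4 RPKM in old control livers, 38.8, 37.0, 34.2 and 22.3 RPKM in young MANF livers and 38.0, 40.5, 37.8 and 32.4 RPKM in young control livers. Every old control liver lay below every young control liver (-0.51, adjusted p 0.368 by limma), and among MANF livers old replicate 3 reached into the young range (-0.77, adjusted p 0.0661). Cyp4a31 had 1.32, 1.64, 5.44 and 1.43 RPKM in old MANF livers, 1.99, 2.49, 1.76 and 0.809 RPKM in old control livers, 3.05, 7.05, 3.67 and 1.53 RPKM in young MANF livers and 4.39, 3.43, 4.50 and 4.02 RPKM in young control livers. Its old control and young control livers did not overlap (-1.07, adjusted p 0.205 by limma), while the MANF groups did (-0.59, adjusted p 0.292).

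Vnn1, the pantetheinase, was at 18.6, 14.2, 19.4 and 12.5 RPKM in old MANF livers and at 23.2, 13.5, 24.5 and 12.8 RPKM in old control livers. Young MANF livers had 15.3, 9.92, 11.1 and 9.71 RPKM and young control livers 12.3, 10.8, 11.4 and 9.98 RPKM. All old control livers lay above all young control livers, and young MANF replicate 1 reached into the old MANF range. The difference was 0.65 for old control against young control (0.21 to 1.09, adjusted p 0.144 by limma) and 0.47 for old MANF against young MANF (0.03 to 0.92, adjusted p 0.129).

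**Figure D2:**
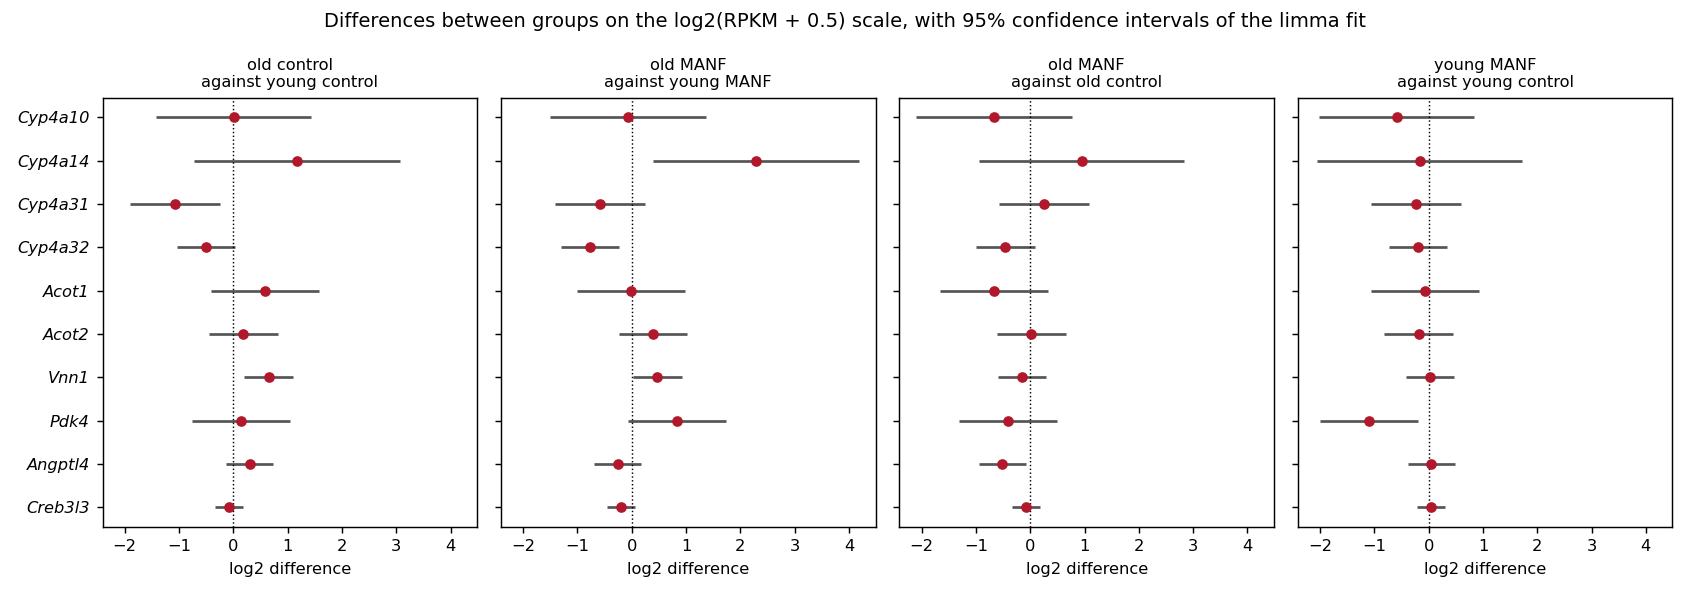
Differences of the 10 genes in the 4 pairwise comparisons, on the log2(RPKM + 0.5) scale, with 95% confidence intervals of the limma fit to 16 libraries. The intervals are widest for Cyp4a14 and Cyp4a10 and narrowest for Creb3l3, and no difference passed an adjusted p of 0.05.

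An age contrast averaged over both plasmids, chosen after the values were seen, sets 8 old livers against 8 young livers. It called 2 of the 10 genes, where 15.6% of all tested genes were called, a share of like size. At an unadjusted p below 0.05 were 4 of the 10, where 33.5% of all genes were. Vnn1 was higher in old livers by 0.56 on the log2 scale (SE 0.15, interval 0.25 to 0.88, adjusted p 0.021 by limma), and Cyp4a32 was lower by a difference of -0.64 (SE 0.18, interval -1.02 to -0.26, adjusted p 0.026). Scaling to a common median left Vnn1 at 0.41 (adjusted p 0.102), no longer called, and Cyp4a32 at -0.79 (adjusted p 0.0154). Under that scaling the median of all genes was -0.04 in place of 0.11, and the split of all calls was 532 higher and 758 lower in place of 1501 and 163. Without young MANF replicate 1 or old MANF replicate 1, Cyp4a32 had an adjusted p of 0.0508 or 0.0543. Cyp4a31 differed by -0.83 (adjusted p 0.0518), and it was called in place of Vnn1, next to Cyp4a32, under median scaling (-0.98, adjusted p 0.04), quantile normalization (-0.98, adjusted p 0.0437) and voom (-1.17, adjusted p 0.0358). Cyp4a14 differed by 1.73 (0.39 to 3.07, adjusted p 0.0713). Without single livers that value was 1.42 to 2.27, with an adjusted p of 0.00383 without old control replicate 4 and of 0.0503 to 0.14 without any other liver. The 4 neighbouring Cyp4a genes were split in their values, with Cyp4a14 above 0, Cyp4a31 and Cyp4a32 below 0 and Cyp4a10 at -0.03 (-1.04 to 0.98).

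Markers of several other cell types were higher in the mean age contrast, where 15.6% of all genes were called and 75% were above 0. All 10 Kupffer cell markers had a mean age difference above 0 and 7 were called higher, and their sum was 156 to 303 RPKM in old MANF, 131 to 730 in old control, 40 to 140 in young MANF and 64.1 to 177 in young control livers. All 7 tested T and NK cell markers were called higher, with sums of 7.09 to 11.2 RPKM in old MANF, 6.37 to 47.5 in old control, 1.04 to 1.61 in young MANF and 1.39 to 9.03 in young control livers. Of 10 sinusoidal endothelium markers 9 were called higher, with sums of 34.1 to 81.5 RPKM in old MANF, 51.3 to 67.5 in old control, 28.7 to 55.2 in young MANF and 24.7 to 33.5 in young control livers. Of 5 tested B and plasma cell markers 3 were called higher, with sums of 5.28 to 11.1 RPKM in old MANF, 2.97 to 27.3 in old control, 1.06 to 2.84 in young MANF and 1.18 to 5.96 in young control livers. Of 10 stellate cell markers 2 were called higher, a share near that of all genes. Their sums were 151 to 178 RPKM in old MANF, 99 to 138 in old control, 84.5 to 106 in young MANF and 90.8 to 147 in young control livers. The 2 age comparisons differed for these stellate markers. In old MANF against young MANF livers 5 of the 10 were called higher, where 6.57% of all genes were called. Their median there was 0.76, where that of all genes was 0.18. In old control against young control livers 0 were called, with a median of -0.08, where that of all genes was 0.05. No marker of these lists was at 0 in all libraries. Of 9 tested hepatocyte markers 1 was called higher and 1 lower. Of 3 tested cholangiocyte markers and 5 tested red blood cell markers 0 were called, and of 4 tested adipocyte markers 1 was called higher. The part of these cell types in the age differences of the 10 genes was not tested.

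The comparisons of plasmids ask whether MANF altered the program. In young MANF against young control livers limma called 0 of the 10, where 0.0187% of all genes were called (2), and 1 of 10 (Pdk4) had an unadjusted p below 0.05, where 14.9% of all genes did. In old MANF against old control livers limma called 0 of the 10, where 0.103% of all genes were called (11), and 1 of 10 (Angptl4) had an unadjusted p below 0.05, where 9.7% of all genes did. Groups without overlap were found for 0 of the 10 in either comparison, where 5.34% of all genes had them in old and 8.89% in young mice. The median of the 10 was -0.28 in old mice, where that of all genes was 0.03, and -0.17 in young mice, where it was -0.10. In old mice 3 of the 10 were above 0, where 59.1% of all genes were, and in young mice 3 of the 10, where 32.1% were. Cyp4a14 differed by 0.95 in old MANF against old control livers (-0.94 to 2.84, adjusted p 0.845 by limma), and by -0.12 without old control replicate 4. For the mean MANF effect over both ages 0 of 10 were called, where 1.29% of all genes were (138), and 1 of 10 (Pdk4) had an unadjusted p below 0.05, where 14.1% of all genes did. On reads recovered from the RPKM, voom called 0 of the 10 in these comparisons too. The interaction, which asks whether the MANF effect differed between ages, had 0 of 10 called by limma, where 0% of all genes were. At an unadjusted p below 0.05 the interaction had 0 of the 10 and 8.37% of all genes.

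Pdk4, the kinase that holds back glucose oxidation, stood at 1.42, 2.34, 1.43 and 1.38 RPKM in old MANF livers and at 4.44, 1.79, 2.01 and 1.66 RPKM in old control livers. Young MANF livers had 1.3, 0.741, 0.177 and 0.823 RPKM and young control livers 5.16, 3.04, 1.45 and 0.566 RPKM. Young MANF overlapped young control only through young control replicate 4, and replicate 3 of young MANF, with 12 reads behind its value, was the lowest of all. The difference was -1.10 for young MANF against young control (-1.999 to -0.19, adjusted p 0.281 by limma) and -0.41 for old MANF against old control (-1.31 to 0.50, adjusted p 0.87). Every old MANF liver was above every young MANF liver (0.83, adjusted p 0.181).

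Angptl4, the secreted lipase inhibitor, had 34.8, 32.4, 33.4 and 38.5 RPKM in old MANF livers and 64.4, 51.1, 55.2 and 33.8 RPKM in old control livers. In young MANF livers it was at 47.7, 34.5, 38.1 and 48.2 RPKM, and in young control livers at 54.3, 41.2, 43.9 and 26.6 RPKM. The old MANF livers lay close together, and 3 of 4 old control livers were above all of them. The difference was -0.51 for old MANF against old control (-0.95 to -0.08, adjusted p 0.393 by limma) and 0.05 for young MANF against young control (-0.38 to 0.49, adjusted p 0.912). The difference between these effects was -0.57 (-1.18 to 0.05, adjusted p 0.603).

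The acyl-CoA thioesterases showed wide overlap. Acot1 averaged 9.65 ± 3.20 RPKM in old MANF, 18.5 ± 11.4 in old control, 10.3 ± 4.75 in young MANF and 10.1 ± 2.99 in young control livers (SD, n = 4). Its old control livers held both the highest value, 31.4 RPKM, and the lowest, 4.40 RPKM. Acot2 averaged 1.48 ± 0.52 RPKM in old MANF, 1.48 ± 0.66 in old control, 0.98 ± 0.25 in young MANF and 1.3 ± 0.90 in young control livers. Creb3l3, the ER-bound factor, averaged 82.3 ± 8.47 RPKM in old MANF, 86.5 ± 4.02 in old control, 95.6 ± 17.5 in young MANF and 91.6 ± 9.33 in young control livers. Its 4 pairwise differences had intervals within -0.46 and 0.30 on the log2 scale, the narrowest of the 10.

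Single livers were high or low for many of the 10 genes at once. Old control replicate 4 was the lowest of its group for 10 of 10 genes, young control replicate 4 and young MANF replicate 4 for 8 each and old MANF replicate 4 for 6. Old control replicate 1 and young control replicate 1 were the highest of their groups for 7 genes each. The shares of all tested genes for which these livers were lowest or highest were not computed. Over all tested genes old control replicate 4 also lay farthest from its group mean (root mean square deviation 0.415 on the log2 scale). The 10 genes are also correlated, as given below, so these counts are not 10 separate observations. Old control replicate 4 also had the highest sum of Kupffer cell markers of all livers, 730 RPKM, and of T and NK cell markers, 47.5 RPKM, and its hepatocyte marker sum of 30059 RPKM was the lowest of the old control livers, which reached 43067. The part of these cells in its low values was not tested.

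**Figure D3:**
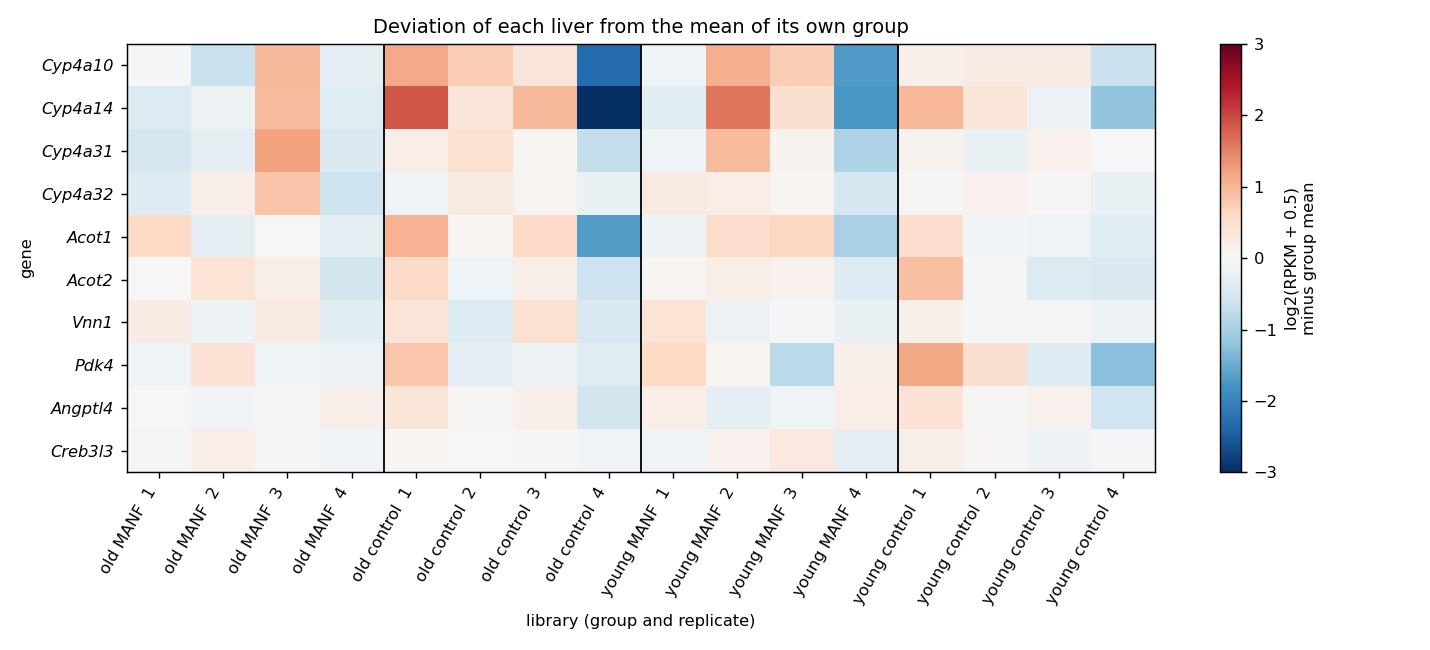
Deviation of each liver from the mean of its own group on the log2(RPKM + 0.5) scale, with genes down the page and libraries across. Red is above and blue below the group mean. The column of old control replicate 4 is below 0 for all 10 genes.

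Pairs of the 10 genes were correlated over the 16 livers after each group's mean had been removed, a choice made after the values were seen. Of 45 pairs 41 had a positive Pearson r, with a median of 0.492 and a range of -0.0351 to 0.937. Pairs of other genes were not examined, so the counts given here have no share over all genes beside them. Of the 45 pairs, 11 had an adjusted p below 0.05 by permutation within groups (100000 permutations, Benjamini-Hochberg over the 45 pairs), and all 11 were positive. Among the 11 were Cyp4a10 with Cyp4a31 (r = 0.808), Cyp4a31 with Cyp4a32 (r = 0.792) and Acot1 with Acot2 (r = 0.702). The split of reads within these near-identical pairs is uncertain, and its part in their r was not tested. Cyp4a10 and Cyp4a14 had r = 0.937 (permutation p = 0.00037, adjusted 0.00832) and Spearman rho = 0.856 (permutation p = 0.00115, adjusted 0.0129). Without the 2 livers farthest from the median of Cyp4a10 r was 0.842, and without old control replicate 4 it was 0.892. Cyp4a14 shares almost no 50-base stretch with Cyp4a10, and the part of shared reads in the r of this pair was not tested either. Acot1 followed both, with r = 0.899 to Cyp4a14 (permutation p = 0.00129, adjusted 0.0145) and r = 0.873 to Cyp4a10 (permutation p = 0.00398, adjusted 0.0224). Without the 2 livers farthest from the median of Cyp4a14 the first was 0.733. The second was 0.651 without the 2 farthest from the median of Cyp4a10. Livers far from the median of Acot1 itself were not left out. Pdk4 and Angptl4 had r = 0.717 (permutation p = 0.0203, adjusted 0.061), and Cyp4a32 and Angptl4, with r = -0.0351, were the least alike. The points share the cell makeup of each liver, which differed as given above, and its part in these correlations was not tested.

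Although Cyp4a14 and Cyp4a10 were correlated within groups, their ratio took different values in the groups. Cyp4a14 divided by Cyp4a10 in the same liver gave 1.79, 3.31, 2.20 and 2.23 in old MANF livers and 1.25, 0.568, 1.13 and 0.373 in old control livers. It gave 0.385, 0.635, 0.370 and 0.414 in young MANF livers and 0.592, 0.358, 0.245 and 0.222 in young control livers. Old MANF livers lay above all other livers, and the other 3 groups overlapped. The sum of stellate cell markers also lay higher in every old MANF liver (at least 151 RPKM) than in any other liver (at most 147 RPKM). In old MANF against old control livers 10 of 10 stellate markers were above 0, where 59.1% of all genes were. Of these markers 5 had an unadjusted p below 0.05, where 9.7% of all genes did, and limma called 0 of them. Their part in the ratio was not tested. The mean ratio was 2.38 ± 0.65 in old MANF, 0.83 ± 0.43 in old control, 0.451 ± 0.124 in young MANF and 0.354 ± 0.169 in young control livers (SD, n = 4). An exact two-sided permutation test gave p = 0.0286 for old MANF against old control and p = 0.0286 for old MANF against young MANF, the smallest value that 4 against 4 allows. This ratio was picked after all 45 pairs of genes in 4 comparisons had been seen, and adjusted over these 180 tests the p was 0.234. Of the 45 ratios, 12 separated old MANF from young MANF livers without overlap, 6 of them with Cyp4a14, and 9 separated old control from young control livers, 0 of them with Cyp4a14. Single genes did so for 23.6% and 10.5% of all tested genes. The ratio of Cyp4a14 to Cyp4a10 was the only one that separated old MANF from old control livers, 1 of 45, where 5.34% of all single genes did so. These shares of single genes are not a matching background, since the 45 ratios are all built from the same 10 genes. The shares among ratios of other genes were not computed.

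**Figure D4:**
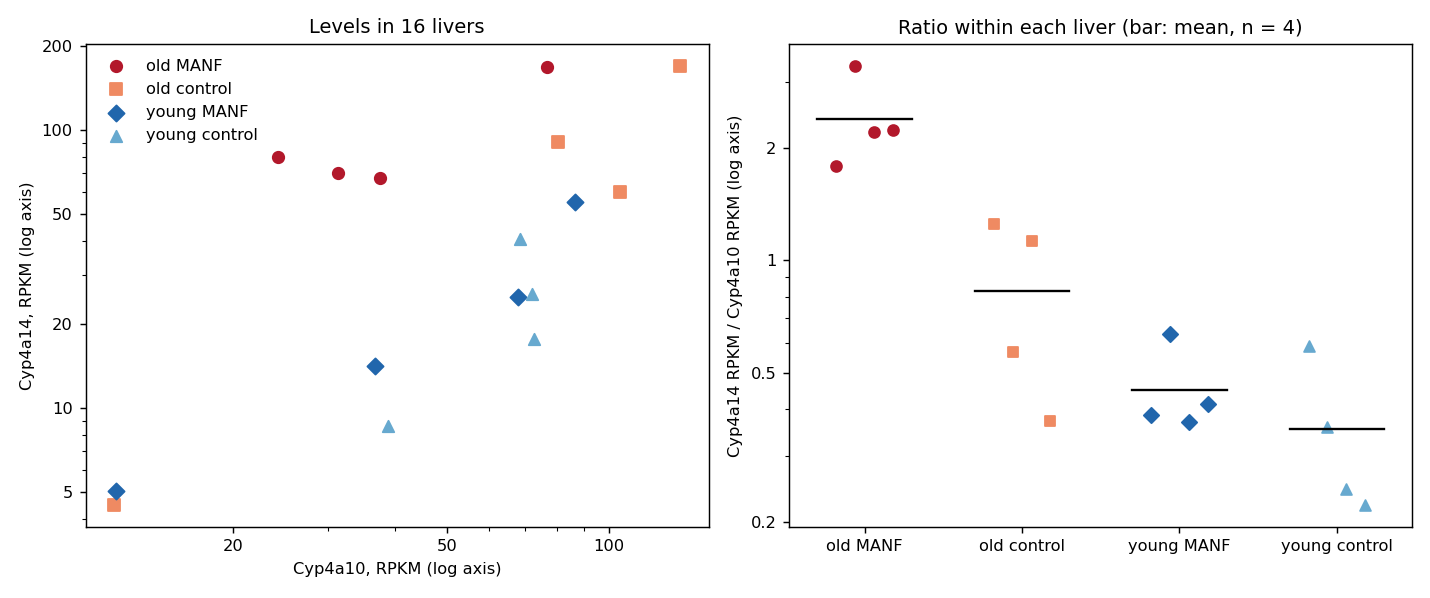
Left, Cyp4a14 against Cyp4a10 in 16 livers, both as RPKM on log axes. Right, the ratio of Cyp4a14 to Cyp4a10 in each liver on a log axis, with the mean of 4 as a bar. The 4 old MANF livers have ratios of 1.79 to 3.31, above the 0.373 to 1.25 of old control livers.

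The rest of the pathway was counted over lists of genes. The receptor gene Ppara averaged 27.2 ± 4.46 RPKM in old MANF, 36 ± 6.18 in old control, 23.9 ± 11 in young MANF and 31.1 ± 3.95 in young control livers (SD, n = 4). Its partner Rxra averaged 56.4 ± 6.06 RPKM in old MANF, 55.8 ± 4.18 in old control, 54.1 ± 1.99 in young MANF and 55.4 ± 3.76 in young control livers. Of 16 tested genes for the receptor, its partners and coregulators, limma called 0 in each of the 4 pairwise comparisons. The mean age contrast called 4 of the 16, all higher, where 15.6% of all genes were called. Among them were the coregulators Ncor1 (0.34, adjusted p 0.0411), Ep300 (0.29, adjusted p 0.0433) and Ppargc1b (0.35, adjusted p 0.0467), and none of these 3 was called under median scaling (adjusted p 0.202, 0.267 and 0.335). At an unadjusted p below 0.05 were 9 of the 16 in old MANF against young MANF livers, where 33.4% of all genes were, and the list's median there was 0.31 against 0.18 for all genes.

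The lists of oxidation genes are read against the shares of all genes called, 0 to 15.6% over the comparisons, and against the shares at an unadjusted p below 0.05, 8.37 to 33.5%. Of 22 tested genes of mitochondrial beta-oxidation limma called 0 in every comparison, the mean age contrast included, with 1 to 4 of the 22 at an unadjusted p below 0.05. Their median was -0.11 in old MANF against young MANF livers, where that of all genes was 0.18, and 0.04 in old control against young control livers, where it was 0.05. In old MANF against old control livers it was -0.12, with 5 of 22 above 0, where all genes had 0.03 and 59.1%. In young MANF against young control livers it was 0.05, with 13 of 22 above 0, where all genes had -0.10 and 32.1%. Cpt1a, which admits fatty acids to mitochondria, averaged 98.9 ± 6.78 RPKM in old MANF, 119 ± 8.07 in old control, 102 ± 20.5 in young MANF and 119 ± 5.13 in young control livers. Of 6 ketogenesis genes 0 were called in any comparison, with 0 to 2 at an unadjusted p below 0.05. Of 18 tested genes of peroxisomal oxidation 0 were called in the pairwise comparisons, with 2 to 6 at an unadjusted p below 0.05. In old MANF against old control livers these were 5, where 9.7% of all genes were, and in young MANF against young control livers 4, where 14.9% were. They were 6 in old MANF against young MANF livers (33.4% of all genes) and 2 in old control against young control livers (14.9%). The mean MANF effect had 6 of the 18 and 14.1% of all genes. The list's median in old MANF against old control livers was -0.175, where that of all genes was 0.034. Ehhadh, a peroxisomal oxidation enzyme, averaged 74.0 ± 11.5 RPKM in old MANF, 74.1 ± 19.8 in old control, 76.4 ± 35.6 in young MANF and 73.5 ± 13.8 in young control livers.

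In the mean age contrast 2 of the 18 peroxisomal genes were called, where 15.6% of all genes were, both higher in old livers, the thioesterases Acot4 (0.84, adjusted p 0.0163 by limma) and Acot3 (1.37, adjusted p 0.0373). Acot3 was no longer called under median scaling (1.22, adjusted p 0.0678), quantile normalization (0.0752), voom (0.0804) or no filter on low values (0.0601), and without any one of old MANF replicates 1 to 3, old control replicates 1 to 3, young MANF replicates 2 and 4 or young control replicates 2 to 4 (adjusted p 0.0512 to 0.0773). Acot4 was called in all alternatives run. Acot4 averaged 14.8 ± 4.43 RPKM in old MANF, 18.1 ± 5.72 in old control, 7.27 ± 2.80 in young MANF and 10.9 ± 2.15 in young control livers. Of 14 fasting hormone and gluconeogenesis genes limma called 0 in any comparison. At an unadjusted p below 0.05 were 4 of the 14 in old MANF against old control livers, 5 in young MANF against young control livers and 6 for the mean MANF effect, where the shares of all genes were 9.7%, 14.9% and 14.1%. For the mean MANF effect the list's median was -0.38, with 3 of 14 above 0, and that of all genes -0.03. Fgf21, a hormone that PPAR alpha induces in fasting, averaged 2.75 ± 1.96 RPKM in old MANF, 1.92 ± 1.39 in old control, 2.51 ± 1.40 in young MANF and 1.80 ± 0.88 in young control livers.

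Other lists held genes that did change with age. Of 20 tested genes of fatty acid supply and activation, 2 were higher in old control against young control livers and 3 in old MANF against young MANF livers, where 1.25% and 6.57% of all genes were called. Under median scaling Cd36 alone was still called in each, since Acaca (adjusted p 0.0636 in control mice and 0.116 in MANF mice) and Acacb (0.0727 in MANF mice), genes of acetyl-CoA carboxylase, were not. Cd36, the fatty acid uptake protein that PPAR alpha can also induce, averaged 18.3 ± 0.66 RPKM in old MANF, 17.2 ± 2.61 in old control, 6.42 ± 0.92 in young MANF and 6.00 ± 2.38 in young control livers. It was higher in old MANF against young MANF livers by 1.45 (adjusted p 0.0016 by limma) and in old control against young control livers by 1.51 (adjusted p 0.00195). Sinusoidal endothelium and Kupffer cell markers were also higher in the mean age contrast, as given above. In old control against young control livers 5 of 10 endothelium markers were called higher, with a median of 0.99. In old MANF against young MANF livers 0 of these 10 were called, with a median of 0.33. Of 10 Kupffer cell markers 0 were called in either comparison, with medians of 1.23 in control mice and 1.33 in MANF mice. The part of these cells in the Cd36 differences was not tested. Of 15 tested genes of feeding-induced lipid synthesis, 2 were called higher with age in each comparison, Acaca and Acly, where 1.25% of all genes were called in control mice and 6.57% in MANF mice. The call of Acaca did not hold under median scaling, as given above. Acly, which makes cytosolic acetyl-CoA, was higher by 0.99 in MANF mice (adjusted p 0.00944) and 1.19 in control mice (adjusted p 0.00512). For the mean MANF effect limma called 0 of these 15 genes. At an unadjusted p below 0.05 were 7 of the 15, where 14.1% of all genes were. Above 0 were 13 of the 15, where 42.2% of all genes were. The list's median was 0.32, where that of all genes was -0.03. Of 17 tested relatives of the 10 genes, the mean age contrast called 6 higher and 2 lower, where 15.6% of all genes were called. Pdk1, a kinase of the same family as Pdk4, was higher in old control against young control livers (0.88, adjusted p 0.0304, and 0.0513 under median scaling). Vnn3, a relative of Vnn1, was higher in the mean age contrast (0.42, adjusted p 0.0112, and 0.116 under median scaling). Cyp4a12b, a fatty acid hydroxylase gene known to be male-predominant, was at 13.2 ± 2.41 RPKM in old MANF livers, against 34.5 ± 5.96 RPKM in young MANF livers (-1.36, adjusted p 0.00372). In old control livers it was at 19.3 ± 7.70 RPKM, against 30.2 ± 5.09 RPKM in young control livers, and was not called in that comparison. Its mean age difference was -1.02 (adjusted p 0.000868 by limma). Its close copy Cyp4a12a makes the split of reads uncertain there too. The clock gene Nr1d1, a repressor whose level swings over the day, was higher with MANF at both ages, by 1.34 in old mice (adjusted p 0.00345) and 1.46 in young mice (adjusted p 0.00127). Whether this goes with the levels of the 10 genes was not tested.

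The genes most like the 10 in their pattern over the 16 livers were ranked by Pearson r with the mean of the 10 standardised genes, as a description with no test. The highest were Pxmp4 (0.849), Elmod3 (0.836), Acadl (0.796), Uck1 (0.782), G0s2 (0.772), Lgals4 (0.766), Pllp (0.762) and Plin5 (0.761). Pxmp4 codes for a peroxisomal membrane protein, Acadl for an enzyme of mitochondrial beta-oxidation, G0s2 for an inhibitor of fat breakdown and Plin5 for a lipid droplet protein. Of the 10 genes themselves, Cyp4a10 (0.875) and Acot1 (0.865) were closest to their mean and Cyp4a32 (0.432) farthest.

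RefSeq promoter windows (GRCm38.p6, 250 bases before to 50 after a start) were at hand for 5 of the 10 genes, 6 windows in all. The direct repeat that PPAR alpha is known to bind, searched on both strands as AGGTCA repeated after 1 free base, was in 0 of these 6 and in 0.0396% of 32851 windows of all genes. With the fourth base of each copy left free as well it was in 0 of 6 and in 0.381%. The single motif AGGTCA, which is part of the repeat, was in 1 of 6, a window of Creb3l3, and in 16.3% of all. These letters say nothing of sites outside the windows.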

How the data were processed

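Liver RNA was read by the authors with a stranded mRNA kit (TruSeq Stranded mRNA LT), after Trizol extraction of flash frozen tissue, per the labels' protocols. Alignment and counting tools in the submitters' processing notes are STAR (2.4.2a) and HTSeq, with the mm10 build. The deposited table holds RPKM that the authors had computed for 24010 entries, with 1 library per animal, and 6664 entries were at 0 in every library. Of the deposited values above 0, 99.99% are whole multiples of what 1 read is worth (tolerance 0.001 reads, at most 0.2), so reads could be recovered.

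The 10677 genes that reached 0.5 RPKM in 4 or more of 16 libraries were fitted as log2(RPKM + 0.5), with 1 mean per group and all libraries, by limma (version 3.58.1, R 4.3.3; trend option). Tests were two-sided with Benjamini-Hochberg adjustment over all tested genes, and a gene was called below 0.05. A fold change on this scale is understated for low genes. Alternatives were pseudocounts of 0.1 and 1 RPKM, no filter or a mean of at least 1 RPKM, median scaling, quantile normalization, voom on recovered reads, a replicate block, only the libraries compared, and libraries left out. voom called 121 genes in old control against young control, 347 in old MANF against young MANF, 2 in young MANF against young control and 11 in old MANF against old control livers.

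The 10 genes and all lists were chosen with earlier results of these data known. The genes named are the 10 in every comparison, called list genes with the 3 smallest p, genes told as background and the 8 with the most similar pattern. The mean age contrast, the correlations and the ratios were added after the values were seen. Ratios were compared with exact permutation tests in Python 3.11.15 with scipy 1.17.1. The recovery of reads and the limma and voom fits of old control against young control were tested on simulated data, and the other steps were not. Sequences come from GENCODE M21 and RefSeq. Some genes of the background are not reported here.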

Additional observations from a re-analysis of the deposited data

Results flagged for a closer look

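In each group of 4 livers the gap between an extreme value and its nearest neighbour was set against the group's range on the log2 scale, and compared with Dixon's critical value for 4 samples. Of 40 groups examined (10 genes in 4 groups) 3 exceeded it, and chance gives about 1 in 20. Cyp4a31 was 5.44 RPKM in old MANF replicate 3, where the other 3 old MANF livers had 1.32 to 1.64 RPKM, and the same liver was the highest of its group for 5 of the 10 genes. Pdk4 was 2.34 RPKM in old MANF replicate 2, where the others had 1.38 to 1.43 RPKM. Cyp4a10 was 38.9 RPKM in young control replicate 4, where the others had 68.3 to 72.5 RPKM, and that liver was the lowest of its group for 8 of the 10 genes.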

How the results depend on the processing

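In old MANF against young MANF livers the count of called genes among the 10, which was 0, became 1 with voom on recovered reads (Cyp4a32, adjusted p 0.0441), 1 with the 8 libraries compared alone (Cyp4a14, 0.0447) and 1 without young MANF replicate 3 and old control replicate 4 (Cyp4a14, 0.0297). It ranged from 0 to 1 when single livers were left out (1 without young MANF replicate 4 or old MANF replicate 3, Cyp4a32). The count of 2 for the mean age contrast ranged from 1 to 3: 1 without young MANF replicate 1 or old MANF replicate 1, and 3 without young MANF replicate 4, old control replicate 2, old control replicate 4 or old MANF replicate 3. The other counts stayed at 0 when single livers were left out. Vnn1 lost its mean age call with median scaling (0.41, adjusted p 0.102), quantile normalization (0.46, adjusted p 0.0632) and voom (0.44, adjusted p 0.0756), and Cyp4a32 lost its call without both libraries named above (-0.59, adjusted p 0.0613). The causes were not tested.

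With a replicate block, the count was 1 in old control against young control (Vnn1, adjusted p 0.0416), 1 in old MANF against young MANF (Cyp4a32, 0.0466) and 4 for the mean age contrast (Cyp4a14, Cyp4a31, Cyp4a32 and Vnn1). Over all tested genes same-numbered livers deviated from their group means with correlations of -0.319 to 0.21. The numbers were not taken to pair the samples in the main fit. Whether livers of the same number share a factor that acts on the 10 genes was not tested. Among the 10 genes, replicate 4 had the lowest median deviation in every group (-0.319 in old MANF, -0.581 in old control, -0.458 in young MANF and -0.377 in young control).

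Some differences changed sign, none of them called. Cyp4a10 in old control against young control became -0.001 with a pseudocount of 0.1 RPKM, -0.074 with median scaling, -0.07 with quantile normalization and -0.048 with voom. Median scaling gave Acot1 0.056 in young MANF against young control, Acot2 -0.007 in old MANF against old control, Creb3l3 0.029 for the mean MANF effect and Angptl4 -0.13 for mean age. Quantile normalization gave Creb3l3 -0.05 in young MANF against young control, Acot2 -0.024 in old MANF against old control and Angptl4 -0.051 for mean age. voom gave Creb3l3 0.007 for the mean MANF effect and Angptl4 -0.114 for mean age. Without young MANF replicate 3 and old control replicate 4, old MANF against young MANF was 0.177 for Cyp4a10 and 0.187 for Acot1, young MANF against young control was -0.052 for Creb3l3, and old MANF against old control was -0.123 for Cyp4a14 (0.95 with all livers) and -0.181 for Acot2. The mean MANF effect was then -0.221 for Cyp4a14 (0.395 with all livers) and -0.127 for Cyp4a31, and mean age was 0.475 for Cyp4a10.

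Leaving out single livers also moved values across 0. In old MANF against young MANF the range was -0.634 to 0.295 for Cyp4a10 and -0.341 to 0.187 for Acot1. In old control against young control it was -0.375 to 0.773 for Cyp4a10, -0.001 to 0.49 for Acot2 and -0.279 to 0.524 for Pdk4. In old MANF against old control it was -0.123 to 1.575 for Cyp4a14, -0.147 to 0.423 for Cyp4a31, -0.181 to 0.21 for Acot2 and -0.302 to 0.001 for Vnn1. In young MANF against young control it was -0.693 to 0.418 for Cyp4a14, -0.553 to 0.078 for Cyp4a31, -0.263 to 0.266 for Acot1, -0.33 to 0.121 for Acot2, -0.114 to 0.095 for Vnn1, -0.145 to 0.194 for Angptl4 and -0.052 to 0.144 for Creb3l3. For the mean MANF effect it was -0.142 to 0.707 for Cyp4a14, -0.19 to 0.166 for Cyp4a31, -0.181 to 0.072 for Acot2, -0.139 to 0.013 for Vnn1 and -0.064 to 0.034 for Creb3l3. For the interaction it was -0.842 to 0.306 for Cyp4a10 and -0.098 to 0.392 for Acot2, and for mean age -0.314 to 0.352 for Cyp4a10 and -0.077 to 0.113 for Angptl4. With 4 livers in a group and the spread seen in Cyp4a14 and Cyp4a10, only large differences could pass the threshold, and Pdk4 rested on as few as 12 reads.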
